A study of Mus musculus with 12 samples.

Results

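A set of 65 rows of a gene count table was described, out of 24552 rows in all. They carried at least 100 counts over the 6 libraries of unstimulated mouse macrophages (M0) and at most 10% of that sum over the 6 libraries of stimulated macrophages (M1). Of the 1413 rows with an M0 sum of 100 or more, 76 met that limit, which is 5.38%. Of the 76, 11 were left out by name, among them Cd163, Cx3cr1, Cebpa, Bach2 and 2 symbols ending in os, and 65 rows stayed, Prune2, Nat8l and Cul9 included. The rows were chosen by these 2 sums, so their loss of counts in M1 is described here and carries no test.

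The cells were macrophages grown in culture from mouse bone marrow, and the question was what the loss of Gpr31b, the mouse gene of a receptor for a 12-lipoxygenase product, does to them. The 4 groups were Gpr31b KO M1, WT M1, Gpr31b KO M0 and WT M0, with 3 libraries each and 12 in all. M1 cells had received LPS and IFN-γ, and M0 cells had received neither. The labels give no strain, age or sex, no dose and no duration of stimulation, and they do not say whether libraries of a group came from separate animals, so p-values reflect how these particular libraries vary and no more.

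Stimulation with LPS and IFN-γ drives macrophages through NF-κB and interferon regulatory factors. Inflammatory and interferon-induced genes are switched on, and many genes of the resting cell, including those for scavenging, lipid handling and proliferation, are turned down. The mRNA of a repressed gene falls at a pace set by its own decay as well as by the stop in its transcription. In bulk libraries like these, fewer cells of a kind and less RNA per cell cannot be told apart.

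Library totals ran from 372878 to 585465 counts, and 4787 to 6216 rows held a count in a library. The Gpr31b row held no count in KO M1, 2 in every WT M1 library and none in KO M0 or WT M0, too few to check the knockout. All 10 macrophage markers had a count. Their summed counts per library were 132 to 202 in KO M1, 127 to 245 in WT M1, 1190 to 1777 in KO M0 and 877 to 1468 in WT M0, and most of the M0 counts lay on the Cd163 row. The Lyz2 row, for the lysozyme of phagocytes, held 30 to 41 counts in KO M1, 6 to 44 in WT M1, 91 to 216 in KO M0 and 122 to 181 in WT M0. The Adgre1 row, for a surface protein of macrophages, was higher in most M1 libraries, with 24 to 42 counts in KO M1, 11 to 64 in WT M1, 8 to 15 in KO M0 and 4 to 12 in WT M0. Summed markers of neutrophils, B cells, NK cells, mast cells and fibroblasts did not pass 10 counts in any library. The T cell list was high through the Cd247 row while Cd3e, Cd3d and Cd3g were at 0, and the dendritic cell list was high in M1 through the Xcr1 row, at 195 to 241 counts in KO M1, 174 to 271 in WT M1, 6 to 14 in KO M0 and 10 to 19 in WT M0, while Flt3 and Zbtb46 were at 0. Whether these lists had a part in the loss of the 65 rows was not tested.

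Values are given by row, because the table does not say which strand was counted, although the libraries were strand-specific per the labels' protocols. Among the 64 rows matched to 1 gene of the mouse annotation, 44 (68.8%) had an exon that overlapped an exon of a gene on the other strand by 20 bases or more. Another 13 (20.3%) had none but lay within 5000 bases past the 3′ end of such a gene, and 7 (10.9%) had neither. Among the other 1315 matched rows with an M0 sum of 100 or more, the shares were 80.3%, 12.7% and 7.0%. Among the 12661 matched rows with no count in any library, the shares were 12.5%, 15.6% and 71.9%. Reads of a named gene and reads of its opposite-strand partner therefore cannot be told apart, and what a gene is known for is given below as background on its name.

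**Figure D1:**
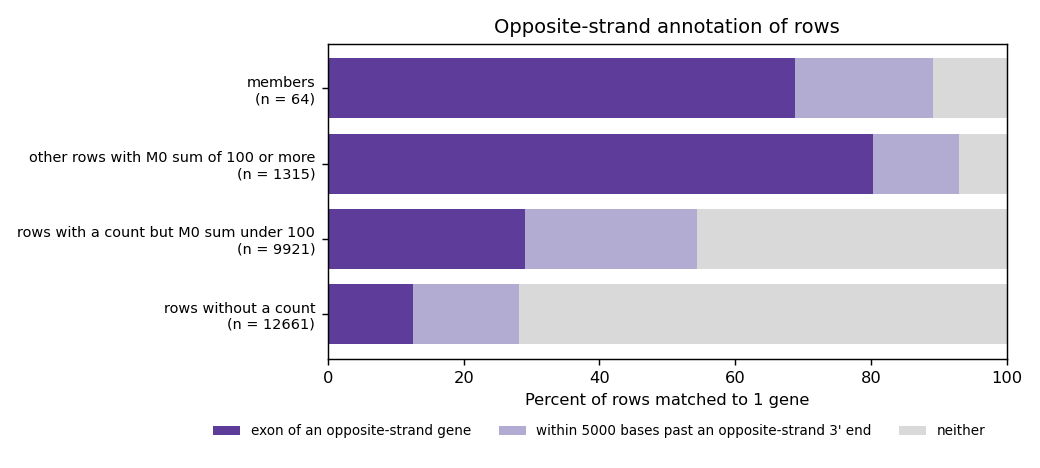
Percent of matched rows (horizontal axis) that overlap an exon of an opposite-strand gene, lie within 5000 bases past the 3′ end of one, or do neither, for 4 classes of row. Of the members 68.8% lie over an opposite exon, against 80.3% of the other rows with an M0 sum of 100 or more and 12.5% of rows without a count.

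Promoters of 45 of the 65 genes were found in RefSeq (build GRCm38.p6), each with 250 bases before and 50 after the gene start. They were searched on both strands for 4 short motifs of macrophage regulators. A gene counted once if any of its promoters held the motif. The PU.1 core GAGGAA, bound by the factor that sets macrophage identity, was found for 14 of the 45 genes (31.1%). The share was 30.8% of 1045 genes of the other rows with an M0 sum of 100 or more, and 31.3% of all 27025 genes. The E-box CACGTG, the centre of the element through which TFEB drives lysosomal genes, was in 15.6% (7 of 45), 11.6% and 8.09% of the same sets. The core of the interferon-stimulated response element, TTTC and again TTTC with 2 bases between them, was in 6.67% (3 of 45), 3.73% and 3.99%. That of the gamma-activated site, TTCNNNGAA, was in 6.67% (3 of 45), 7.66% and 9.55%. With 45 member genes, such shares rest on few genes. A match is a run of letters and not a site of binding. The strand counted is not known, so the promoter of a named gene may not be that of the RNA counted on its row. The promoters of Prune2, Cul9 and Sgsh are printed as examples from the 12 rows that kept at most 1% of their M0 sum in M1. They were picked by name and each holds a motif, so they do not stand for the set. Capitals mark the PU.1 core in the first and second and the E-box in the third. Prune2 lies at chr19:16955868-16956167 on the plus strand, Cul9 at chr17:46546339-46546638 on the minus strand and Sgsh at chr11:119355461-119355760 on the minus strand.

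Prune2: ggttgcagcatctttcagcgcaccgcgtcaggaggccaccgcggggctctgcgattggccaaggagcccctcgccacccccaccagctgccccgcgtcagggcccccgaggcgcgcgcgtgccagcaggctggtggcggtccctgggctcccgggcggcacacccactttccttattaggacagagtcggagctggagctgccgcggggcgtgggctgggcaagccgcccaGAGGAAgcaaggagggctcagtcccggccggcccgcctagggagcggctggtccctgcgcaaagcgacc

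Cul9: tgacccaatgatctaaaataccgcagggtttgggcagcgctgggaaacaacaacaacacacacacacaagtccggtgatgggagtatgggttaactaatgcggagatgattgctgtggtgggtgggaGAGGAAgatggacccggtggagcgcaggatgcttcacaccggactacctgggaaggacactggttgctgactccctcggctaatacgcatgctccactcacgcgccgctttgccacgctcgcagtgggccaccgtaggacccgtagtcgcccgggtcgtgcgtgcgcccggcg

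Sgsh: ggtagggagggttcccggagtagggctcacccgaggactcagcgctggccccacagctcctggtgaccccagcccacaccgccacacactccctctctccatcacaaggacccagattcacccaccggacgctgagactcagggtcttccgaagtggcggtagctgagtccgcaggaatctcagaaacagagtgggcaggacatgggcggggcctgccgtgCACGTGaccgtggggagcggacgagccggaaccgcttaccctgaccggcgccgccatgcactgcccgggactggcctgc

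The 65 rows together held 3488 counts in M1 and 76870 in M0. They made up 0.109% to 0.142% of the counts of each M1 library and 2.78% to 3.16% of each M0 library. The Card14 and Focad rows alone carried 38% of the M0 sum. M0 sums ran from 100 to 15993 with a median of 345, with 17 rows at 200 or less. The M1 sum was at most 1% of the M0 sum in 12 rows, between 1% and 5% in 20 and above 5% in 33, with a median of 5.04%. Only 4 of the 65 rows were at 0 in all 6 M1 libraries, so most of the set was greatly reduced rather than off. Within one genotype, the M1 sum was at most 10% in 58 rows in KO (median 4.41%) and in 60 rows in WT (median 3.70%). The limit on the sum of both genotypes largely fixes these numbers.

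**Figure D2:**
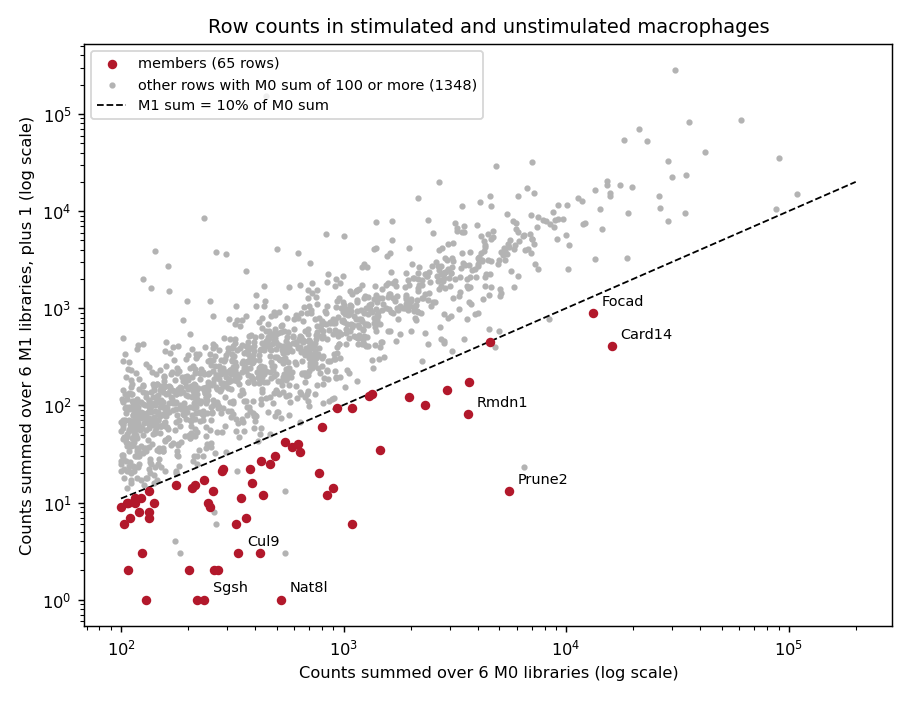
Counts summed over 6 M1 libraries plus 1 (vertical axis, log scale) against counts summed over 6 M0 libraries (horizontal axis, log scale) for the 1413 rows with an M0 sum of 100 or more. The 65 members (red) lie under the dashed 10% line, where grey points are rows left out by name. Prune2 lies far below Card14 and Focad, and Nat8l and Sgsh sit at the bottom with no M1 count.

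In M0, the median ratio between a row's highest and lowest library was 1.92 in CPM, which are counts scaled to a common library size as in the tests. In 63 of the 65 rows the lowest M0 library was above the highest M1 library on that scale, a separation that the choice of rows largely fixes. The exceptions were C1ql3, with 1 count in one M1 library of each genotype and 1 count in KO M0 replicate 3, and Gm11149, with 6 counts in KO M1 replicate 1 and 2 counts in KO M0 replicate 2. C1ql3 encodes a secreted protein of the C1q family, and Gm11149 is an antisense RNA over Ncam1. The 3 rows just inside the limit were Pigb at 9.70%, B430010I23Rik at 9.81% and Dnah11 at 9.87%. Just outside were Adgra2 at 10.2%, Nfix at 10.5% and Fam168b at 10.6%. With counts scaled for library composition before summing, 47 of the 65 rows still met the whole rule, the M0 minimum as well as the 10% limit. A row could drop out by either.

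Prune2 encodes a protein with a BCH domain that is known mainly from the nervous system. Its row held KO M1 counts of 2, 1 and 5, WT M1 counts of 1, 0 and 3, KO M0 counts of 997, 812 and 983 and WT M0 counts of 987, 812 and 926. The lowest M0 library had 812 counts and the highest M1 library 5, and KO and WT overlapped in both states. The M1 sum was 0.287% of the M0 sum in KO and 0.147% in WT, the smallest share left among the 12 rows given library by library that kept any count in both genotypes. No opposite-strand exon overlaps Prune2 (chromosome 19, 16956118 to 17223932, plus strand), and the 3′ end of Gm27970 on the other strand lies 999 bases away. Other genes of the family gave few counts. The Prune1, Bnip2, Bnipl and Atcay rows had sums of 10, 8, 3 and 0 in M1 and of 26, 23, 2 and 1 in M0, and none of the 4 had enough counts to be tested.

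Nat8l encodes the enzyme that makes N-acetylaspartate from aspartate and acetyl-CoA, a store of acetyl groups best known from neurons and brown fat. It had 0 counts in every KO M1 and WT M1 library, against 71, 102 and 79 in KO M0 and 85, 88 and 96 in WT M0. The M0 libraries of the 2 genotypes overlapped. Set against a limit of 3 counts over each M1 group, and on scaled counts, the row was at least 62.1-fold lower in KO M1 than in KO M0 and at least 64.3-fold lower in WT M1 than in WT M0. Such limits cover counting error alone. Nat8l lies on chromosome 5 (33995984 to 34005916, plus strand), 1263 bases past the 3′ end of Poln, whose row had no count. None of the 9 other genes listed for N-acetylaspartate metabolism could be tested. Of these, 4 had a count, the highest being the Acly row, for the enzyme that makes cytosolic acetyl-CoA, with 7 counts in M1 and 13 in M0. The Aspa row, for the enzyme that splits N-acetylaspartate, had none.

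Cul9 encodes a large cullin of the ubiquitin ligases that binds p53 and holds it in the cytoplasm. Its row had no KO M1 count, WT M1 counts of 1, 1 and 0, KO M0 counts of 68, 57 and 65 and WT M0 counts of 58, 46 and 43. Scaled for depth, all 3 KO M0 libraries were above all 3 WT M0 libraries, but the log2 difference of 0.43 (SE 0.34) was not called (edgeR adjusted p = 0.978). The KO M1 sum was at least 46.8-fold lower than the KO M0 sum. Cul9 lies on chromosome 17 (46500572 to 46546388, minus strand), 948 bases past the 3′ end of Dnph1, whose row had no count. Of the 12 other genes of the cullin-RING list all had a count and 3 were tested for M1 against M0. The numbers called higher and lower in M1 were 0 and 1 in KO and 0 and 2 in WT. Of all 2333 tested rows, 25.2% were called higher and 22.4% lower in KO, and 25.7% and 23.1% in WT. With library size as the only scaling, 393 rows were called higher and 850 lower in KO, and 397 and 881 in WT. For the cullin list that scaling gave 0 higher and 3 lower in KO and 0 and 2 in WT, and keeping low rows gave 1 and 1 in KO and 0 and 1 in WT. The median log2 change over the 3 tested rows was -1.16 in KO and -1.15 in WT, against 0.01 in KO and -0.03 in WT over all tested rows. Over all 12 rows with a count, 9 of them too low for the filter, it was 0.00 in KO and 0.76 in WT.

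The Cand2 row, named for an exchange factor of cullins, was called in both genotypes. It averaged 382 ± 21.6 CPM in KO M1 and 957 ± 36.6 CPM in KO M0, a log2 change of -1.32 (SE 0.15, edgeR adjusted p = 7.99e-09). It averaged 400 ± 107 CPM in WT M1 and 883 ± 97.3 CPM in WT M0, a change of -1.15 (SE 0.15, adjusted p = 1.19e-07; SD over 3 libraries each). This row lies opposite the ribosomal protein gene Rpl32. The Cul5 row was lower in WT M1, at -1.77 (SE 0.61, adjusted p = 0.0172), and not called in KO M1, at -1.16 (SE 0.57, adjusted p = 0.0935), and the 2 changes were not shown to differ. The Cul5 call in WT was lost without WT M1 replicate 3 (adjusted p = 0.0816), without WT M0 replicate 1 (0.109) or with low rows kept in (0.0575). The Cul1 row was called in neither genotype, at -1.09 in KO and -0.79 in WT.

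The Card14 row carried the most M0 counts of the set. CARD14 is a scaffold protein that feeds signals to NF-κB in skin keratinocytes. Its row held KO M1 counts of 57, 60 and 85, WT M1 counts of 78, 44 and 81, KO M0 counts of 2610, 2763 and 2468 and WT M0 counts of 2738, 2502 and 2912. The genotypes overlapped in both states, and the M1 sum was 2.58% of the M0 sum in KO and 2.49% in WT. The end of Card14 shares 955 bases of exon with the end of Sgsh on the other strand. SGSH is the lysosomal sulfamidase that trims heparan sulfate, and its row was also in the set, at 0 counts in all 6 M1 libraries, 38, 41 and 29 in KO M0 and 51, 28 and 49 in WT M0. At this locus on chromosome 11, all M0 counts of a row divided by the shared bases came to 16.7 for Card14 and 0.247 for Sgsh. Where in a gene the counts fell is not known, so these are not densities within the overlap.

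**Figure D3:**
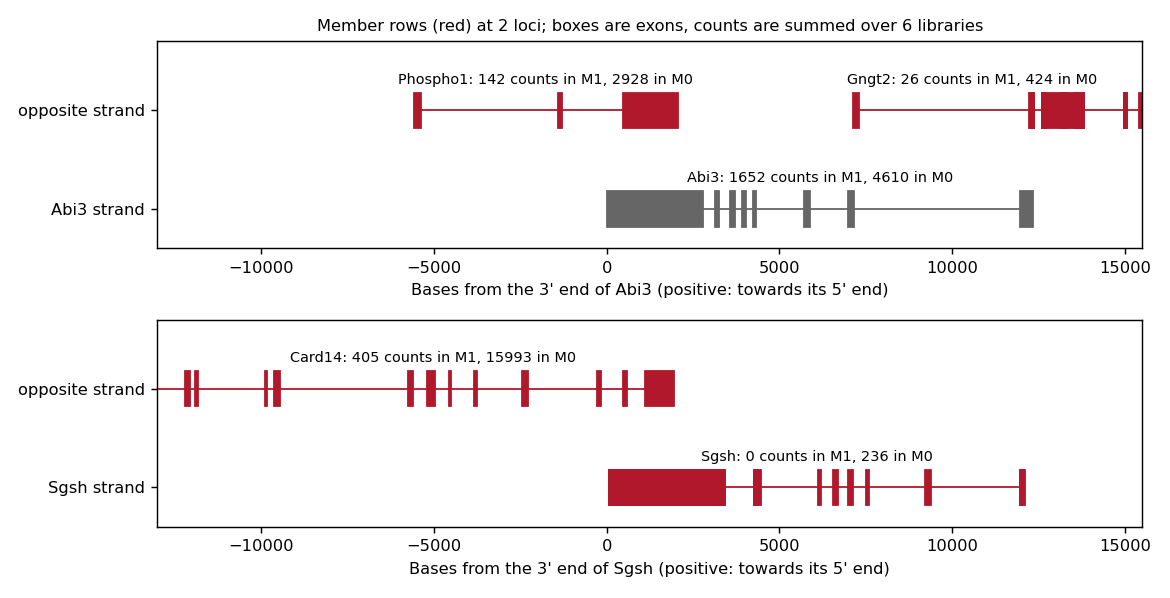
Exons (boxes) of member rows in red and of Abi3 in grey at 2 loci, by distance in bases from the 3′ end of Abi3 or Sgsh (horizontal axis). Phospho1 and Gngt2 overlap the ends of Abi3, and Card14 overlaps the last exon of Sgsh; counts are sums over 6 libraries, such as 405 in M1 and 15993 in M0 for Card14.

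The Focad row, for focadhesin, a protein of cell adhesions, had KO M1 counts of 74, 136 and 168, WT M1 counts of 237, 147 and 130, KO M0 counts of 2093, 2381 and 2349 and WT M0 counts of 2172, 2147 and 2073. It kept 5.54% of its M0 sum in KO M1 and 8.04% in WT M1. In CPM, all 3 KO M1 libraries were below all 3 WT M1 libraries, with means of 334 ± 104 in KO M1 and 451 ± 22.7 in WT M1. The log2 difference of -0.43 (SE 0.15) was not called (edgeR adjusted p = 0.525). Focad shares 746 bases with Hacd4, an enzyme of very long chain fatty acid synthesis, whose row held 0 counts in M1 and 19 in M0.

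B430010I23Rik, an antisense RNA over Mtus1, held KO M1 counts of 56, 67 and 95, WT M1 counts of 108, 61 and 61, KO M0 counts of 718, 617 and 804 and WT M0 counts of 880, 737 and 811. It kept the second largest share of the set. Mtus1, a microtubule-associated tumour suppressor, was a member too, with 9 counts in M1 and 108 in M0. These 2 rows share 612 bases of exon on opposite strands.

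Of the 2 kinase rows, Mast1, for a microtubule-associated serine/threonine kinase, held KO M1 counts of 34, 29 and 16, WT M1 counts of 39, 28 and 26, KO M0 counts of 520, 636 and 645 and WT M0 counts of 707, 473 and 661. The genotypes overlapped in both states. Mast1 shares 1616 bases with Dnase2a, the lysosomal DNase that digests engulfed DNA, whose own row had 6 counts in M1 and 16 in M0. Brsk1, a kinase activated by LKB1, had sums of 39 in M1 and 624 in M0.

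The Rmdn1 row, named for a regulator of microtubule dynamics, held KO M1 counts of 24, 14 and 17, WT M1 counts of 10, 3 and 13, KO M0 counts of 632, 611 and 524 and WT M0 counts of 719, 594 and 545. Raw counts of KO M1 were all above those of WT M1, and in M0 the genotypes overlapped. In CPM the lowest KO M1 and the highest WT M1 library crossed. The M1 share was 3.11% in KO and 1.40% in WT. Rmdn1 lies 1371 bases past the 3′ end of Wwp1, a ubiquitin ligase, whose row had 23 counts in M1 and 69 in M0.

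PHOSPHO1 is the phosphatase that frees phosphate from phosphocholine and phosphoethanolamine when bone mineralises. Its row held KO M1 counts of 23, 32 and 37, WT M1 counts of 24, 18 and 8, KO M0 counts of 448, 528 and 486 and WT M0 counts of 546, 477 and 443. It is a neighbour of Gngt2, for a γ subunit of G proteins, with 5075 bases between them, and both share exon with Abi3 on the other strand. Abi3, an adaptor of the actin-regulating WAVE machinery that macrophages and microglia express, had 1652 counts in M1 and 4610 in M0 on its own row and was no member. All M0 counts of a row divided by the shared bases came to 1.71 for Phospho1 (1708 bases) and 1.81 for Gngt2 (234 bases), wherever in the gene they fell.

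Pdcd11, a factor of ribosomal RNA processing, held KO M1 counts of 14, 26 and 13, WT M1 counts of 12, 21 and 13, KO M0 counts of 333, 507 and 484 and WT M0 counts of 359, 336 and 302. Cdan1, for codanin-1, which binds a histone chaperone and is mutated in a human congenital anaemia, held KO M1 counts of 15, 19 and 28, WT M1 counts of 33, 19 and 6, KO M0 counts of 270, 382 and 459 and WT M0 counts of 354, 263 and 242. In the raw counts of both rows KO M0 replicates 2 and 3 were the highest, while KO M0 replicate 1 lay among the WT M0 libraries. Brsk1, with 98, 128 and 131 counts in KO M0 and 107, 78 and 82 in WT M0, and Pigb, with 223, 274 and 260 in KO M0 and 235, 168 and 180 in WT M0, had the same 2 libraries on top. These 4 rows were picked out after their values were seen. Pigb encodes a mannosyltransferase that builds GPI anchors.

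Rnf150, for a RING finger protein, held KO M1 counts of 1, 13 and 5, WT M1 counts of 11, 3 and 1, KO M0 counts of 221, 228 and 283 and WT M0 counts of 267, 212 and 250. M1 libraries ranged widely at these low counts, and the genotypes overlapped.

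**Figure D4:**
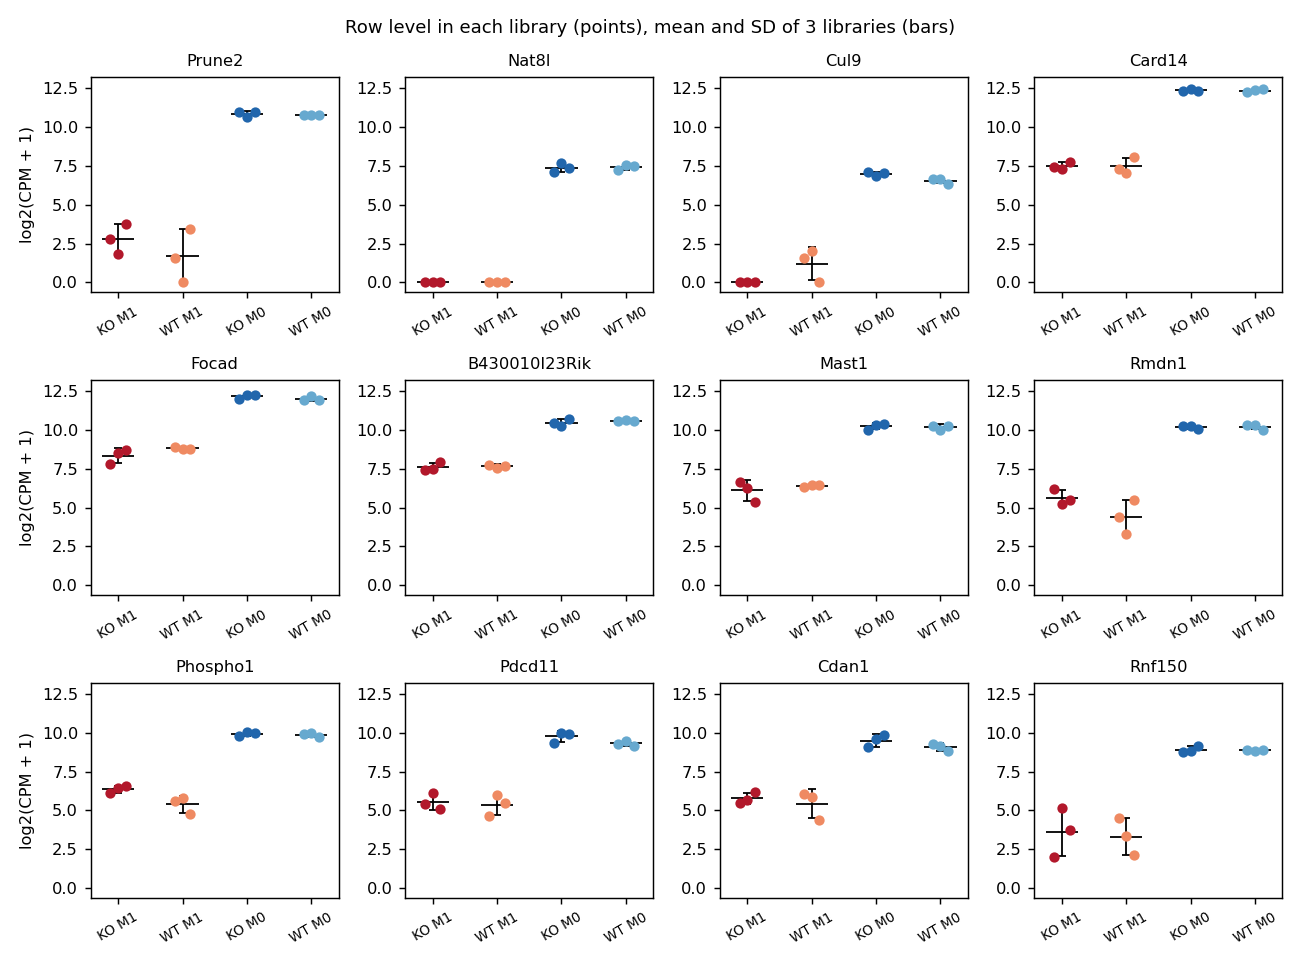
Level of 12 member rows as log2(CPM + 1) (vertical axis) in each library, with the mean and SD of 3 libraries, for KO M1, WT M1, KO M0 and WT M0. The M1 groups lie below the M0 groups in all 12 panels, which the choice of rows fixes; Nat8l is at 0 in all 6 M1 libraries, and Phospho1 is the panel where KO M1 lies wholly above WT M1.

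The rows without any M1 count, beside Nat8l and Sgsh, were Zswim1 and Zfp704, both named for zinc finger proteins. Zswim1 had 45, 38 and 33 counts in KO M0 and 48, 19 and 37 in WT M0, and Zfp704 had 19, 33 and 20 in KO M0 and 14, 23 and 21 in WT M0. On scaled counts and against 3 counts over a group, the rows were at least 28.6-fold (Zswim1) and 17.7-fold (Zfp704) lower in KO M1 than in KO M0, and at least 24.9-fold and 13.9-fold lower in WT M1 than in WT M0. The smaller limits go with fewer M0 counts and say nothing of a weaker loss.

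Zfp704 was the single member among 396 rows whose symbols begin with Zfp. Of the other 395, 222 had a count and 18 were tested for M1 against M0. In KO M1, 4 were called higher and 4 lower, and in WT M1, 3 and 3. Over all tested rows, 25.2% and 22.4% were called higher and lower in KO and 25.7% and 23.1% in WT. With library size alone the counts were 3 and 8 in KO and 3 and 7 in WT. The median log2 change over the 18 tested rows was -0.01 in KO and -0.21 in WT, and over all 222 rows with a count it was 0.0 in both. Rows called in both genotypes included Zfp276 (log2 changes of 4.39 in KO and 4.65 in WT, adjusted p = 1.05e-19 and 2.24e-20) and Zfp397 (-1.55 and -1.73, adjusted p = 0.000479 and 0.000176). Zfp119a had 1 count in M1 and 91 in M0, a share as small as that of many members, and missed the set by its M0 sum.

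Sgsh was the single member among the 14 genes listed for glycosaminoglycan breakdown in the lysosome, and lysosomal enzymes at large were not counted. Arsa, for the arylsulfatase that degrades sulfatide, had KO M1 counts of 3, 0 and 3, WT M1 counts of 3, 0 and 1, KO M0 counts of 32, 30 and 33 and WT M0 counts of 12, 7 and 9. The KO M0 libraries were all above the WT M0 libraries. Of the 13 genes of glycosaminoglycan breakdown that were no members, 12 had a count and 3 had an M0 sum of 100 or more. For M1 against M0, 5 were tested. The numbers called higher and lower were 0 and 1 in KO and 0 and 0 in WT, by edgeR and by DESeq2 alike. At an unadjusted edgeR p under 0.05 there were 2 rows in KO and 0 in WT (53.6% of all tested rows in KO and 54.6% in WT). With library size alone, 2 rows were called lower in KO and 1 in WT. The median log2 change over the 5 tested rows was -0.37 in KO and -0.14 in WT, and over all 12 rows with a count it was -0.21 in KO and -0.81 in WT. The row called in KO was Gusb, for β-glucuronidase, at -2.05 (SE 0.86, edgeR adjusted p = 0.0485), and 6 of 11 alternatives lost the call, among them leaving out KO M1 replicate 2, KO M1 replicate 3 or any one KO M0 library (adjusted p 0.0546 to 0.186 without one of these).

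Several members bear the names of genes of signalling and secretion. Selenop, the selenium carrier protein, had 9 counts in M1 and 245 in M0, and its opposite-strand neighbour Ccdc152 had 2 in M1 and 545 in M0 and was left out by name. Spp1, for osteopontin, a secreted protein that macrophages make in large amounts, had 6 counts in M1 and 110 in M0. Htr2b, a serotonin receptor, had 21 in M1 and 288 in M0, and its row overlaps the proteasome gene Psmd1. Deptor, an inhibitor of mTOR, had 1 in M1 and 107 in M0, and Gm9920, which overlaps it on the other strand, had 1 in M1 and 272 in M0. The Ifi27l2a row, of an interferon-induced family, had 92 counts in M1 and 1091 in M0, while the row of Ifi27, whose 3′ end lies 1928 bases away on the other strand, went the other way with 382 counts in M1 and 21 in M0.

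Other names belong to genes of the cell nucleus, of membranes or of other tissues. Ddx39, an RNA helicase of mRNA export that overlaps Adgre5, had 19 counts in M1 and 777 in M0. Mbd4, a DNA glycosylase that removes mismatched thymine, had 6 in M1 and 366 in M0. Cdc23, a subunit of the anaphase-promoting complex that overlaps Kif20a, had 29 in M1 and 493 in M0. Gramd4, which lies 1494 bases past the ceramide kinase gene Cerk, had 2 in M1 and 422 in M0. Myom1, a protein of the muscle M-band, had 1 in M1 and 261 in M0, and it overlaps the myosin light chain gene Myl12a. Bsn, for the presynaptic scaffold bassoon, had 10 in M1 and 345 in M0, and the axonemal dynein Dnah11 had 92 in M1 and 932 in M0. Macrophages are not known for muscle, synapse or cilium proteins. Whether the counts of these rows came from the named genes was not tested.

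The 7 matched rows that met neither opposite-strand criterion, exon overlap or place past a 3′ end, were Tpra1, Mblac1, Osbpl11, Edaradd, Tmco1, Cnpy4 and Spp1. Opposite-strand genes in other positions near them were not looked for. Tpra1, a protein with a serpentine membrane fold, had 36 counts in M1 and 585 in M0. Mblac1, an enzyme of the metallo-β-lactamase fold, had 11 in M1 and 434 in M0, and its neighbour Cnpy4, a chaperone of Toll-like receptors in the endoplasmic reticulum, had 6 in M1 and 133 in M0. Edaradd, the adaptor of the ectodysplasin receptor, had 8 in M1 and 250 in M0, and Tmco1, a calcium channel of the endoplasmic reticulum, had 9 in M1 and 140 in M0. These rows kept between 2.53% and 6.43% of their M0 sum in M1.

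Among the names of metabolic enzymes, Pde8b, which hydrolyses cyclic AMP, had 123 counts in M1 and 1305 in M0. Gpd1, the cytosolic glycerol-3-phosphate dehydrogenase, had 5 in M1 and 103 in M0, and Adhfe1, which oxidises hydroxybutyrate, had 10 in M1 and 116 in M0. Man2a2, a mannosidase that trims N-glycans in the Golgi, had 7 in M1 and 134 in M0. Timm23, the channel for protein import through the inner mitochondrial membrane, had 14 in M1 and 216 in M0. It lies 307 bases past the 3′ end of Ncoa4, the ferritin receptor of autophagy, whose row went the other way with 104 counts in M1 and 74 in M0. Dnajb13, a co-chaperone of cilia, had 32 in M1 and 635 in M0 and overlaps Ucp2, the uncoupling protein of macrophage mitochondria. Gp1ba, the platelet receptor for von Willebrand factor, had 24 in M1 and 467 in M0. The members not named elsewhere are Ccdc127, Sh2d7, Ankrd40, Lcorl, Rin3, Hspa12b, 4933431E20Rik, 1700001K19Rik and Gm29811, with 5 to 20 counts in M1 and 100 to 329 in M0.

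By the annotation, 53 of the 65 rows were protein-coding genes, 6 antisense RNAs, 3 processed transcripts, 1 a lincRNA and 1 a miRNA, and 1 row (Gm19424) was not matched. Of the matched noncoding rows, Gm9920 kept the smallest share of its M0 sum in M1, 0.368%, and 9130019P16Rik came next at 0.458%, with 5 counts in M1 and 1091 in M0. Gm13031, which overlaps the histone-citrullinating enzyme gene Padi2, had 11 counts in M1 and 846 in M0. Gm16897, opposite A330023F24Rik and Cd34, had 13 in M1 and 894 in M0. Chromosome 11 held 7 members, and chromosomes 8 and 15 held 6 each. Within 10000 bases of each other lay 5 pairs of members, namely Card14 and Sgsh, B430010I23Rik and Mtus1, Deptor and Gm9920, Phospho1 and Gngt2, and Cnpy4 and Mblac1, which are 395 bases apart on one strand.

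The miRNA row was Mir130c, with KO M1 counts of 14, 4 and 11, WT M1 counts of 10, 16 and 4, KO M0 counts of 151, 129 and 114 and WT M0 counts of 145, 141 and 124. The groups of each state overlapped between genotypes. Its 82-base hairpin on chromosome 9 lies whole within an exon of Kdelc2 on the other strand, and polyadenylated RNA libraries do not capture mature miRNAs, so the counts are not of the mature form. The mature sequence (RefSeq, GRCm38.p6, chr9:53400808-53400829, minus strand) is printed beside 2 relatives whose own rows, Mir130a and Mir130b, had no count in M1 or M0, to show the shared seed, bases 2 to 8, in capitals. That seed, AGUGCAA, is carried by 7 mature mouse miRNAs in the RefSeq table.

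mmu-miR-130c: cAGUGCAAuguuccaaggugug

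mmu-miR-130a-3p: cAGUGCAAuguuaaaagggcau

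mmu-miR-130b-3p: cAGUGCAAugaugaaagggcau

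Among the rows that overlap an opposite-strand exon, 42 pairs could be formed with a partner that has a row of its own. In 31 of the 42, the member row had more M0 counts than the partner row. The rule asked for an M0 sum of 100 or more of members and not of partners, which favours this. Pairs in which both rows are members were counted from each side. In M0 the partner sum was 100 or more for 14 pairs and 0 for 4. Pdcd11 had 99 counts in M1 and 2321 in M0, for example, and its partner Calhm2 had 1 in M1 and 2 in M0. In each of the 14 pairs with a partner M0 sum of 100 or more, the partner row had fewer counts in M1 than in M0. The rule fixes this where both rows are members. Of the other partners, Abi3 had 1652 counts in M1 and 4610 in M0, and Kif20a had 693 and 1455. Ncapg had 501 and 1277, Lrrc14b 427 and 1023, and Ccdc152, left out by name, 2 and 545. The Ccpg1 row, opposite Pigb (130 in M1, 1340 in M0), had 1217 in M1 and 2393 in M0. The Slc24a5 row, opposite Myef2 (41 in M1, 543 in M0), kept the largest share, with 1238 counts in M1 and 1365 in M0.

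The biological coefficient of variation that edgeR estimated, the relative spread between libraries of a group, had a median of 0.253 over the members, 0.182 over the other 1348 rows with an M0 sum of 100 or more and 0.288 over all 2333 tested rows. All 65 members passed the filter on low rows, which a row could pass on its M0 counts alone.

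Whether Gpr31b loss changed these rows in M0 could be tested, because the rule summed both genotypes. A row that kept its counts in M1 in 1 genotype alone could hardly meet the limit on the summed M1 counts. The M1 and interaction tests on members therefore could not find such rows, and only smaller differences between genotypes were open to them. In M0, edgeR's quasi-likelihood test called 0 of the 65 members between KO and WT, where 1 of 2333 rows was called (0.0429%), the Perm1 row, which is no member and is named after its value was seen (log2 change 0.79, SE 0.16, adjusted p = 0.0480). The alternatives called between 0 and 4 rows in this comparison. At an unadjusted p under 0.05 there were 5 members and 151 rows (6.47%), and DESeq2 called no row. The members' median log2 change was 0.04, against 0.01 over all tested rows, with 37 members above 0 and 28 below. The 95% interval lay within a 2-fold change either way for 33 members, among them Prune2 (0.10, SE 0.14), Nat8l (-0.04, SE 0.28) and Card14 (0.00, SE 0.14).

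The member with the smallest p in M0 was Arsa, with a log2 change of 1.82 (SE 0.61, edgeR adjusted p = 0.507). Pdcd11 came next at 0.47 (SE 0.19, adjusted p = 0.642), then Pigb at 0.45 (SE 0.19, adjusted p = 0.692). None passed the threshold. In CPM, the 3 KO M0 libraries did not overlap the 3 WT M0 libraries in 10 members (15.4%), against 11.9% of all tested rows. KO was above WT in 8 of the 65, against 152 of all 2333 tested rows (6.52%). These 8 were Pigb, Gm16897, Brsk1, Bsn, Cul9, Cnpy4, Arsa and Mtus1. It was below WT in 2 of the 65, Gngt2 and 9530052E02Rik, against 126 of 2333 (5.4%).

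In M1, 0 members and 0 of 2333 rows (0.0%) were called by edgeR, 5 members and 164 rows (7.03%) had an unadjusted p under 0.05, and DESeq2 called no row. Phospho1 averaged 82.0 ± 12.7 CPM in KO M1 and 43.1 ± 14.6 CPM in WT M1 (SD over 3 libraries each), a difference that was not called (log2 change 0.90, SE 0.24, edgeR adjusted p = 0.290). Rmdn1 followed with 1.09 (SE 0.33, adjusted p = 0.438), and Osbpl11, for an oxysterol-binding protein relative, with -3.44 (SE 1.14, adjusted p = 0.503). Osbpl11 rests on 1, 0 and 0 counts in KO M1 and 4, 10 and 0 in WT M1, and its log2 change was -5.55 without KO M1 replicate 1 and -2.16 without WT M1 replicate 2. Groups did not overlap in 5 members (7.69%), against 10.8% of all tested rows, with KO above WT in Phospho1 and Adhfe1 (5.96% of all tested rows) and below it in Focad, Htr2b and Gm11747 (4.84%). With so few M1 counts, the interval lay within 2-fold for 10 members only, so differences of that size were mostly not detectable at this depth.

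The interaction asks whether the loss of counts with stimulation differed between KO and WT. Members were chosen for a loss in the sum of both genotypes, so a loss in 1 genotype alone could hardly appear among them. It was called for 0 members and 0 of 2333 rows (0.0%) by edgeR and for no row by DESeq2, with 7 members and 144 rows (6.17%) at an unadjusted p under 0.05. The smallest p-values were those of Osbpl11 (-3.90, SE 1.20), Phospho1 (0.85, SE 0.28) and Rmdn1 (1.10, SE 0.37), each with an edgeR adjusted p of 0.605. The Osbpl11 value was -6.00 without KO M1 replicate 1 and -2.61 without WT M1 replicate 2. The interval lay within 2-fold for 8 members, among them Card14 at -0.02 (SE 0.23).

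**Figure D5:**
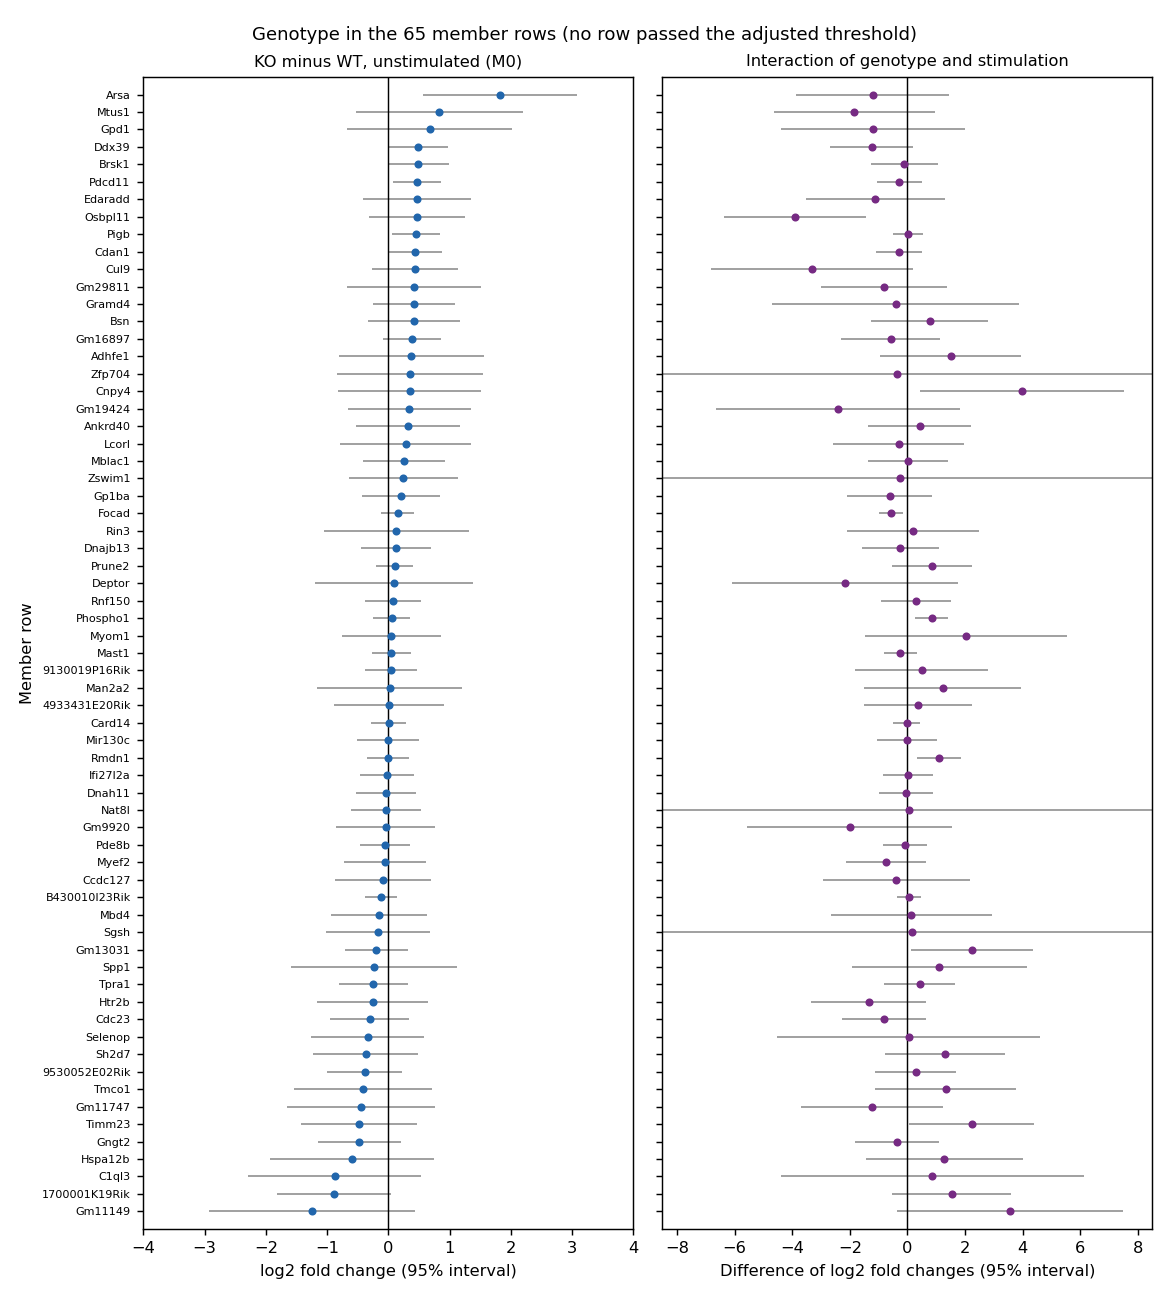
KO minus WT log2 fold change in M0 (left) and interaction of genotype with stimulation (right) for the 65 members, in the order of the M0 value, with 95% intervals; intervals of the 4 rows without any M1 count run past the right panel. Arsa stands highest in M0 at 1.82, and no member passed the adjusted threshold in either panel.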

How the data were processed

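Polyadenylated RNA of 12 macrophage libraries was sequenced on a NovaSeq instrument after a strand-specific TruSeq preparation, per the labels' protocols. What the authors deposited is 1 table of raw counts, whole numbers with a symbol for each row and a column for each library, and no normalization is named per the file headers. The submitters' processing notes name Trimmomatic, FastQC, HTSeq and DESeq2, and the build mm10. The aligner, the annotation and the strand setting are not given in the sources used here.

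Counts were summed per row over 6 M1 and 6 M0 libraries. The members and all gene and marker lists were chosen with earlier results of these data known. Prune2, Nat8l, Cul9 and the 9 other members with the most M0 counts were to be given library by library, together with called members or, without any, the 3 smallest p-values of each genotype comparison, rows at 0 in M1 and 3 rows on either side of the limit.

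Tests used edgeR 4.0.16 in R 4.3.3: filterByExpr on the 4 groups left 2333 rows, TMM factors scaled the libraries, and a robust quasi-likelihood model was fitted to all 12. P-values were adjusted by the Benjamini-Hochberg method over all tested rows and called under 0.05. The steps were tested on simulated data. Standard errors and 95% intervals come from each log2 change divided by the root of its F statistic, and are poor where a group is near 0. Reads copied by PCR were not marked by molecular identifiers, so floors cover counting error only. Alternatives were RLE factors, library size alone, no filter, DESeq2 1.42.0, a replicate block and each library left out. Symbols were matched to GENCODE M21 (GRCm38, the mm10 assembly).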

Additional observations from a re-analysis of the deposited data

How the results depend on the processing

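No member was called between genotypes in any of 39 alternatives over the 3 genotype comparisons, and the sign of the 3 members named in each of these comparisons held in all of them. The number of rows called between KO and WT in M0 (1) was 0 with library size alone and with DESeq2, 4 with low rows kept, and 0 to 2 with a library left out (2 without KO M0 replicate 1, 0 without each of the other 5 M0 libraries). In M1 (0) it was 0 to 1 with a library left out, the 1 without KO M1 replicate 1. For the interaction (0) it was 3 with low rows kept and 0 to 3 with a library left out, the 3 without KO M0 replicate 1 and 1 without KO M1 replicate 1, KO M0 replicate 3 or WT M0 replicate 2.

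Replicate numbers were not used as pairs in the main tests. The labels do not say whether the same number marks the same animal in M1 and M0. Correlations of same-numbered deviations ran from -0.02 to 0.17 between KO and WT and from 0.04 to 0.12 between M1 and M0. Each M1 library correlated best with its own number in M0, a hint from the data and not the design. Whether M1 and M0 libraries were paired is therefore not settled. With the replicate block, the interaction was called in 3 rows and KO against WT in 0, both in M0 and in M1, with no member among them, and 1102 rows were called for M1 against M0 in KO (1110 without it) and 1113 in WT (1138).

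Leaving out one library gave 1016 to 1068 called rows for M1 against M0 in KO and 1040 to 1107 in WT. Library size alone moved the median log2 change of all rows to -0.46 in KO and -0.53 in WT.

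The rule took 32 rows at an M1 limit of 5%, 162 at 20%, 122 with an M0 minimum of 50 counts, 48 with 200, and 62 to 72 with one library left out. Applied to KO alone, with an M0 minimum of 50, it took 74 rows, 56 of them among the 65, and to WT alone 87 rows, 59 of them among the 65.

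Depth limits the M1 values, with 4 members at 0 in all 6 M1 libraries. Of counts from 1 to 12, 60.9% were even over all rows and 50.7% over the members (229 counts). Limits drawn from a count of 0 treat counts as independent.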
